A study of Triticum aestivum with 6 samples.

Results

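A set of 219 bread wheat (Triticum aestivum) genes was near or at 0 in leaves of warm-grown plants. These genes were moderately abundant in leaves of cold-treated plants. The members were chosen from the measured values: each had a summed level under 1 FPKM at 23 °C and from 10 to under 100 FPKM at 4 °C, among 99386 gene IDs, so that members made up 0.22% of them. FPKM is the number of sequenced fragments scaled by transcript length and by library size, and a gene's level is the sum over its transcripts. Leaf RNA was sequenced from plants kept at 4 °C (labelled 4 weeks, 3 libraries) and from plants kept at 23 °C (labelled 2 weeks, 3 libraries). The treatment label gives 2 weeks of cold, so the 4 labelled weeks need not all have been spent at 4 °C. All plants had 16 hours of light a day at 120 μmol m-2 s-1, all carry the label 18:3 for their lipid phenotype, and no cultivar is named. Each temperature had its own growth chamber, so temperature, chamber and labelled weeks cannot be told apart in any difference given here.

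As background, wheat is a hexaploid whose A, B and D subgenomes hold related copies, or homoeologues, of most genes. Leaves of temperate cereals acclimate to low, non-freezing temperature. In this process CBF transcription factors activate cold-regulated genes, among them those of dehydrins and other protective proteins. Long cold also brings on vernalization, which allows the plant to flower. Many of the genes known for these roles are nearly silent in warm-grown leaves. Whether any member is such a gene is not known here, because the gene IDs carry a chromosome arm and no name, and 0 of the 99386 IDs matched the RefSeq gene table. For the same reason the leaf label could not be set against leaf marker genes, and no member's sequence is shown.

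The table used here has a single authors' value per transcript and condition. No value therefore has a replicate error, and no difference has a test. The read depth is unknown, so no interval and no detection limit can be given. In bulk tissue, fewer cells of a type and less RNA per cell cannot be told apart. Reads of homoeologues can also be assigned to each other's copies, which bears on each value of a single gene or arm below.

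The members spanned the whole of the range that the rule allowed. At 4 °C their levels ran from 10.2 to 92.2 FPKM, with a median of 18.3 FPKM and quartiles of 12.9 and 28.9 FPKM. At 23 °C they ran from 0 to 0.994 FPKM, with a median of 0.334 FPKM. By construction the 2 ranges do not overlap. All members together held 0.515% of the FPKM in the 4 °C column and 0.00834% in the 23 °C column. The median log2 difference of members, on the log2(FPKM + 1) scale with 23 °C subtracted from 4 °C, was 3.83, and the lowest was 2.60. The pseudocount of 1 understates the change of such low genes. Over the 42972 genes whose mean reached 1 FPKM, the median log2 difference was 0.09, and 12.4% were at least 2-fold higher at 4 °C on this scale. All 219 members passed both marks, as the rule ensures, and nothing is read from that count.

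Most members lay toward the lower end of the range at 4 °C. There were 122 members from 10 to under 20 FPKM (55.7%), 76 from 20 to under 50 FPKM (34.7%) and 21 from 50 to under 100 FPKM (9.59%). The other 11091 genes from 10 to under 100 FPKM at 4 °C, whose 23 °C level was at least 1 FPKM, split in a similar way, with 51.6%, 35.7% and 12.8% in the same classes. Among all 11310 genes of this 4 °C level, members made up 1.94%. With the conditions exchanged, 82 genes lay under 1 FPKM at 4 °C but from 10 to under 100 FPKM at 23 °C, or 0.824% of the 9956 genes of that 23 °C level. The set that was on in the cold was thus larger than its mirror image, in number and as a share. The table as a whole leaned the same way. Of the 42972 genes whose mean reached 1 FPKM, 5318 rose by a factor of 2 or more in the cold. Those that fell by as much numbered 2846, both on the log2(FPKM + 1) scale. Whether the set exceeded its mirror image by more than this general lean was not tested.

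The limit of 1 FPKM at 23 °C did not fall in a gap. The members nearest to it had 0.986, 0.987 and 0.994 FPKM at 23 °C, and the nearest genes outside it had 1.003, 1.010 and 1.011 FPKM. A further 162 genes of the same 4 °C level had 1 to under 2 FPKM at 23 °C. At the lower limit at 4 °C, the nearest members had 10.15, 10.23 and 10.25 FPKM and the nearest genes outside had 9.95, 9.93 and 9.91 FPKM. The upper limit was sparsely filled, with members at 92.2, 88.5 and 87.3 FPKM at 4 °C and genes outside at 100.4, 110.5 and 121.2 FPKM.

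**Figure D1:**
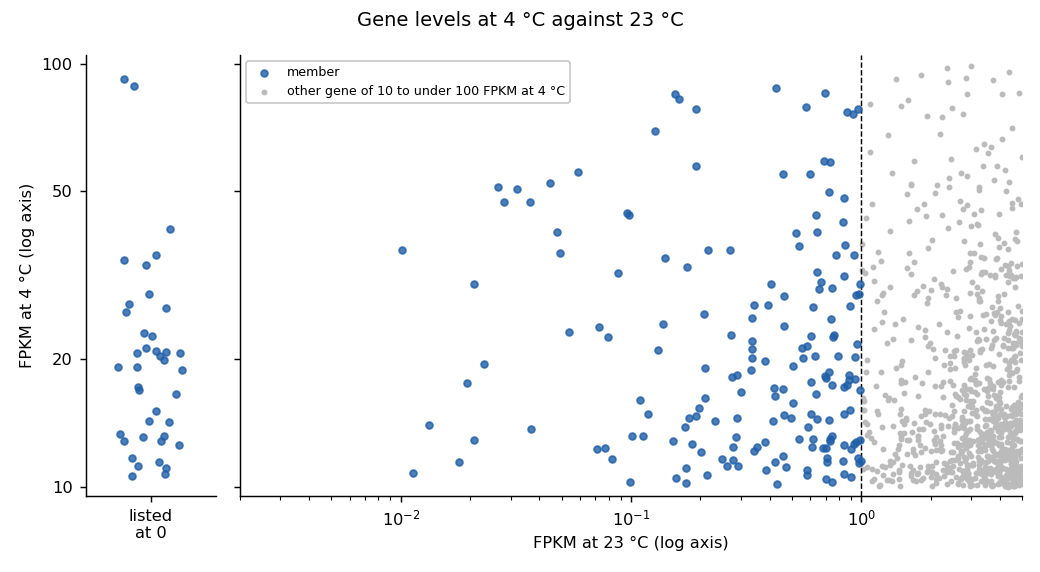
FPKM at 4 °C against FPKM at 23 °C, both on log axes, for each gene from 10 to under 100 FPKM at 4 °C whose 23 °C level was under 5 FPKM. Blue points are the 219 members, of which the 40 listed at 0 at 23 °C stand in the strip on the left with a random sideways offset; grey points are other genes, and the dashed line marks 1 FPKM at 23 °C, across which the points run on without a gap.

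At 23 °C, 40 members were listed at exactly 0, 27 were above 0 and under 0.1 FPKM, 68 were from 0.1 to under 0.5 FPKM and 84 from 0.5 to under 1 FPKM. The level at 4 °C did not follow this order. Median FPKM at 4 °C was 19.2 for the members listed at 0 at 23 °C and 23.8, 16.1 and 18.3 for the next classes in turn. An exact 0 can be a failed estimate, and no fold is given for those members. For the other 179, the ratio of FPKM at 4 °C to FPKM at 23 °C ran from 11.6 to 3569.6, with a median of 50.2 and quartiles of 25.9 and 118.1. It was at least 100 in 47 members and at least 1000 in 8.

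The plot of levels shows a pair of members apart from the other 38 that were listed at 0 at 23 °C. Traes_5DL_2D156E093, on the long arm of chromosome 5D, had 92.2 FPKM at 4 °C and was listed at 0 at 23 °C for each of its 7 transcripts. It was the most abundant member at 4 °C and ranked 1340 among all genes there. A member on 7AS with 1 transcript had 88.5 FPKM at 4 °C and was also listed at 0 at 23 °C. The next members listed at 0 at 23 °C, both on 4AL, had 40.6 and 35.3 FPKM at 4 °C, far below that pair.

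Among members above 0 at 23 °C, Traes_5DL_50BA21161, also on 5DL, had the highest ratio. It has 1 transcript, with 36.3 FPKM at 4 °C, against 0.0102 FPKM at 23 °C. This 23 °C value was the lowest above 0 in the set, so the ratio of 3569.6 rests on a value near the bottom of what the table lists. The next ratios were 1945.9 on 3AL, 1684.7 on 2BL and 1582.2 on 4AL. Members with a ratio of at least 500 numbered 19 and lay on 13 arms. The arm 4AL held 4 of them, and 5BL, 5DL and 7DL held 2 each.

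The 21 members of at least 50 FPKM at 4 °C lay on 14 arms and divided evenly over the subgenomes, with 7 on each. After the pair listed at 0 at 23 °C, the most abundant were a member on 7BL with 87.3 FPKM at 4 °C against 0.426 FPKM at 23 °C, and a member on 2DS with 85.3 FPKM at 4 °C against 0.698 FPKM at 23 °C. Another member on 5DL had 84.8 FPKM at 4 °C against 0.155 FPKM at 23 °C. Group 3 chromosomes held 6 of the 21, and 3 of these had nearly equal levels. The member on 3AS had 78.8 FPKM at 4 °C against 0.575 FPKM at 23 °C, that on 3B had 77.9 against 0.962 FPKM, and that on 3DL had 76.8 against 0.866 FPKM. The arms 3AS and 3DL are not homoeologous to each other, and the ID on 3B names no arm. Whether any of these members are copies of each other is not given by the IDs. No member of at least 50 FPKM lay on group 6, where the highest, on 6DS, had 43.9 FPKM at 4 °C against 0.635 FPKM at 23 °C.

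Members had fewer transcripts in the table than other genes of the same 4 °C level. The median was 2 transcripts for members and 3 for the other 11091 genes, and the means were 3.05 and 5.04. A single transcript was listed for 93 members (42.5%), against 20.01% of the other genes. At the upper end, 14.6% of members and 30.6% of the other genes had 6 or more transcripts. The difference was present in each class of 4 °C level. Single-transcript genes made up 42.6% of members and 18.5% of the other genes from 10 to under 20 FPKM, 44.7% and 21.5% from 20 to under 50 FPKM, and 33.3% and 22.2% from 50 to under 100 FPKM. The rule did not use the number of transcripts directly. It did limit the sum over transcripts in warm-grown plants, and a further transcript can only raise that sum. The part of this limit in the difference was not tested. With the highest transcript in place of the sum, the median of members was also 2 transcripts, and the share with a single transcript was not counted. The sources used here do not say how transcripts were assembled, and the part that reads of these same libraries had in it was not tested.

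**Figure D2:**
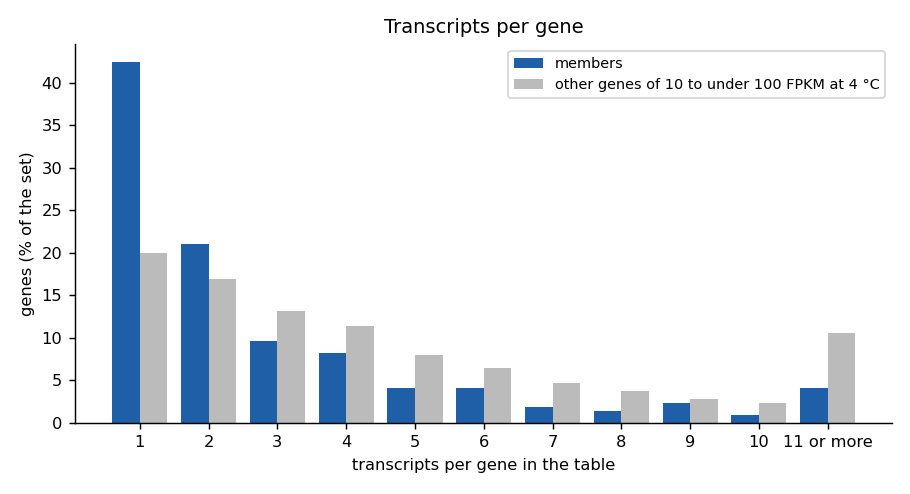
Share of genes, in percent of each set, by the number of transcripts listed per gene. Blue bars are the 219 members and grey bars the other 11091 genes from 10 to under 100 FPKM at 4 °C; 42.5% of members and 20.01% of the other genes had 1 transcript.

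Part of this difference came from the members listed at 0 at 23 °C. Of those 40, 32 had 1 transcript (80%), and without them the share of single-transcript members was 34.1%. Seen the other way, 34.4% of the 93 members with 1 transcript were listed at 0 at 23 °C, against 6.35% of the 126 with several. The same order held over all gene IDs, so it is not particular to the members. There, 52.6% of the 42922 with 1 transcript and 12.8% of the 56464 with several were listed at 0 at 23 °C. This background is unlike the members, since 27163 of the 29810 gene IDs listed at 0 at 23 °C were also at 0 at 4 °C. A gene with several transcripts is listed at 0 when each of them is. Above 0, the share of single-transcript genes had no steady order over the 23 °C level. It was 22.2% above 0 and under 0.1 FPKM, 25% from 0.1 to under 0.5 FPKM and 45.2% from 0.5 to under 1 FPKM. In genes of the same 4 °C level outside the set it was 33.3% from 1 to under 2 FPKM at 23 °C, 24.9% from 2 to under 5 FPKM and 19.6% at 10 FPKM or more. In the mirror set of 82 genes, 69.5% had 1 transcript and 24 were listed at 0 at 4 °C.

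The 219 members had 668 transcripts in all. At 4 °C, 199 of these reached 10 FPKM, 178 had 1 to under 10 FPKM, 152 were above 0 and under 1 FPKM, and 139 were listed at 0. The transcripts did not all share the direction of their gene. There were 76 with a higher value at 23 °C than at 4 °C, though none of these exceeded 0.497 FPKM at 23 °C. In 182 members at least 1 transcript reached 10 FPKM at 4 °C by itself, and in 14 of these 2 or more did. The other 37 members reached 10 FPKM through the sum alone, with a leading transcript as low as 4.41 FPKM at 4 °C.

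In the 126 members with several transcripts, the leading transcript at 4 °C held a median of 78.7% of the gene's FPKM, with quartiles of 59.1% and 93.2%. In the other genes of this 4 °C level with several transcripts the median was 72.8%. The difference went with the number of transcripts. Among genes with 2 transcripts the medians were 90.05% in members and 92.7% in the other genes, among those with 3 to 5 they were 78.5% and 77.4%, and among those with 6 or more 52.6% and 57.0%. Within these classes, the median of members was thus the lower in 2 and the higher in 1.

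The transcript with the highest value was not always the same at both temperatures. Of 118 members with several transcripts and a level above 0 at 23 °C, 80 had the same leading transcript in both conditions (67.8%) and 38 another. In 6 of the 118 the transcript that led at 4 °C was listed at 0 at 23 °C. Over the 118 members, this transcript held a median of 78.5% of the gene's FPKM at 4 °C and 56.6% at 23 °C, but picking the leader at 4 °C favours a lower share at 23 °C. With the transcript that led at 23 °C picked instead, the medians were 66.4% at 4 °C and 68.0% at 23 °C. In the other 8872 genes of the same 4 °C level with several transcripts, they were 72.8% and 71.3% for the 4 °C leader, and 72.3% and 71.5% for the 23 °C leader. Among these other genes, the leading transcript was the same in 89.0%. The share moved with the level at 23 °C. It was 42.9% in members above 0 and under 0.1 FPKM, 64.7% from 0.1 to under 0.5 FPKM and 82.6% from 0.5 to under 1 FPKM. Outside the set it was 74.1% from 1 to under 2 FPKM and 90.03% at 10 FPKM or more. Values of transcripts within a gene divide shared reads, and the part of low read numbers at 23 °C in these shares was not tested.

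**Figure D3:**
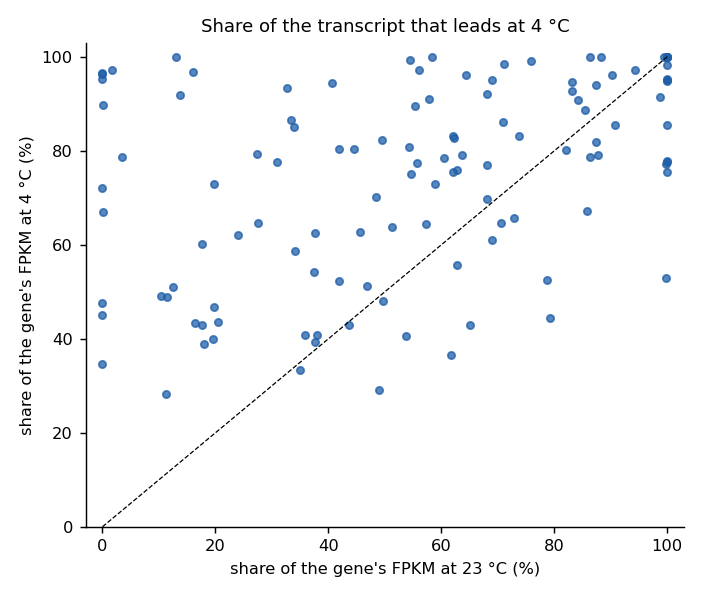
For each of the 118 members with several transcripts and a level above 0 at 23 °C, the share of the gene's FPKM held by the transcript that leads at 4 °C, in percent, with the 4 °C share on the vertical axis and the 23 °C share on the horizontal axis. The dashed line marks equal shares; the 4 °C share was the higher in 84 members, a direction that picking the leader at 4 °C favours.

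By number, the members were spread almost evenly over the subgenomes. The A, B and D chromosomes held 72, 75 and 72 of them, or 32.9%, 34.2% and 32.9% of members. The same chromosomes held 32.3%, 34.4% and 33.3% of all gene IDs, so against gene IDs the shares were nearly equal. Set against the genes from 10 to under 100 FPKM at 4 °C on the same subgenome, the A subgenome had 20.5 members per 1000 genes, B had 20.4 and D had 17.5. In group 6 the number of such genes was itself uneven. There 6D had 5 members among 667 such genes, 6B had 10 among 400 and 6A had 3 among 108. Without group 6 the rates of A, B and D were 20.3, 19.8 and 19.4. Median levels of members at 4 °C were 21.3 FPKM on A, 17.2 FPKM on B and 16.9 FPKM on D chromosomes, and the quartiles overlapped, at 14.2 and 29.6, 12.6 and 27.1, and 12.4 and 28.3 FPKM. The members listed at 0 at 23 °C numbered 15, 14 and 11 in the same order.

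Over the homoeologous groups, group 2 held the most members, 47, and group 6 the fewest, 18. Per 1000 genes from 10 to under 100 FPKM at 4 °C, group 2 had 24.5, group 3 had 21.5, group 7 had 20.5 and group 4 had 20.2. Groups 1, 6 and 5 had 17.0, 15.3 and 14.6. Median FPKM of members at 4 °C was lowest in group 1, at 14.1, and lay between 17.0 and 20.4 in the other groups. Short and long arms hardly differed, with 20.1 and 19.3 members per 1000 such genes when chromosome 3B, whose IDs name no arm, was left out.

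At least 1 member lay on 39 of the 41 chromosome arms, and none on 1BS and 6AL. Those arms held 129 and 47 genes from 10 to under 100 FPKM at 4 °C, so an absence there rests on few genes. The median arm held 6 members. The arm with the most was 4AL, with 11, followed by 3B with 10 and by 2AS, 2BL, 3AL, 3DL, 5BL and 5DL with 9 each. Rates per arm rest on few members. They were highest on 6AS, at 49.2 per 1000 genes of the same 4 °C level, from 3 members among 61 genes. That denominator is small for the arm, which has 1863 gene IDs in all. On 6DS, 238 of 1476 gene IDs were of this level, so the rate on 6AS rests largely on its low count of such genes. The next were 1AS at 38.0, 6BS at 37.3, 2AS at 36.4, 4AL at 36.3 and 7BL at 35.7, against 19.4 over all arms. The lowest above 0 were 6DS at 4.20 and 7DS at 6.92.

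**Figure D4:**
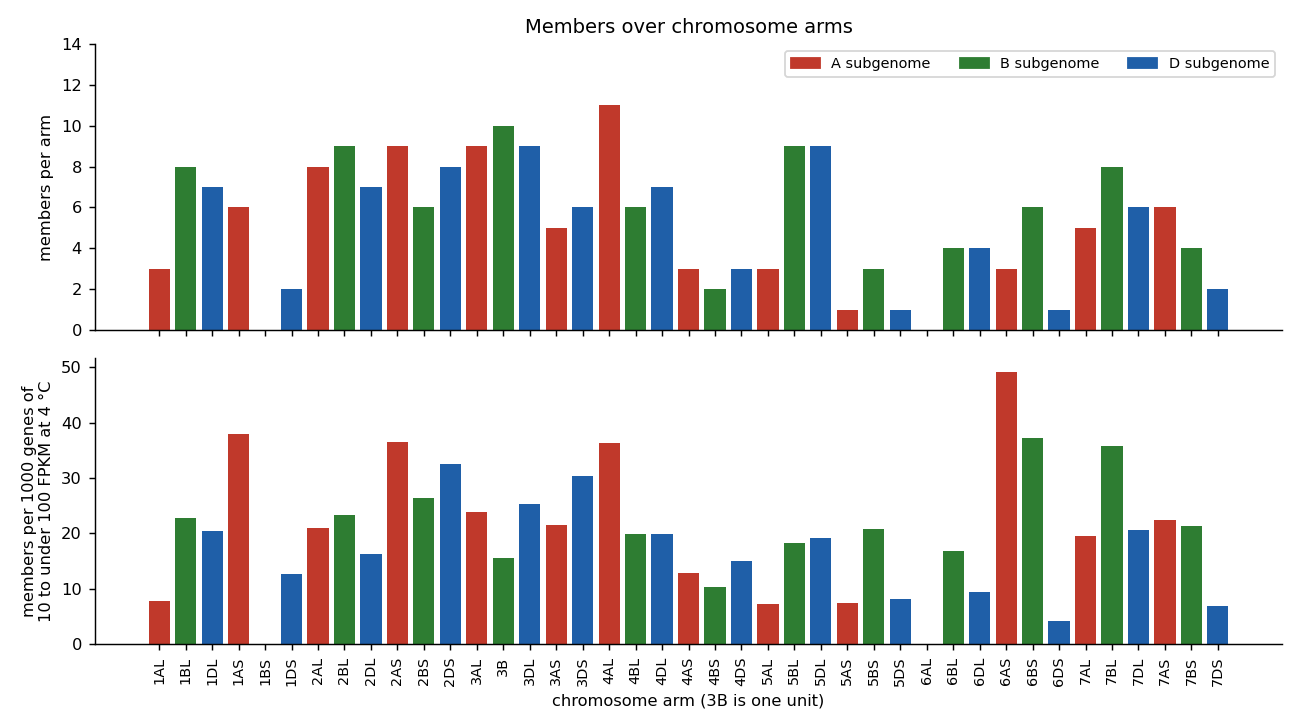
Number of members on each chromosome arm (upper panel) and members per 1000 genes from 10 to under 100 FPKM at 4 °C on that arm (lower panel), with arms of a homoeologous group side by side and bars coloured by subgenome. The bar for 4AL is the tallest in the upper panel, with 11 members, and 1BS and 6AL have none.

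Homoeologous arms were alike in some groups and unlike in others. The short arms of group 2 held 9 members on 2AS, 6 on 2BS and 8 on 2DS, which was 31.9 per 1000 genes of the same 4 °C level, the highest rate of the 13 sets of matching arms. Their levels at 4 °C ran from 10.2 to 42.1 FPKM on 2AS, from 10.4 to 78.2 FPKM on 2BS and from 10.5 to 85.3 FPKM on 2DS. At 23 °C no member on 2AS was listed at 0, while 3 on 2BS and 1 on 2DS were. The long arms of group 2 were close to each other too, with 8, 9 and 7 members on 2AL, 2BL and 2DL.

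Group 5 was uneven. The long arms held 3 members on 5AL, 9 on 5BL and 9 on 5DL, or 7.18, 18.3 and 19.2 per 1000 genes of the same 4 °C level. On the whole of 5A there were 4 members, 3 of them listed at 0 at 23 °C, and the most abundant had 25.9 FPKM at 4 °C. The short arms of group 1 were uneven in another way, with 6 members on 1AS, 0 on 1BS and 2 on 1DS.

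The arm 4AL stood out by number within its set. As background, rearrangements have made 4AS the counterpart of 4BL and 4DL, and have brought segments from 5AL and 7BS to the end of 4AL. The set of 4AL, 4BS and 4DS held 11, 2 and 3 members, and that of 4AS, 4BL and 4DL held 3, 6 and 7. On 4AL, 2 members were listed at 0 at 23 °C and 6, these included, were under 0.1 FPKM, against 67 of all 219 members (30.6%). Levels of the 11 members at 4 °C ran from 13.7 to 69.4 FPKM, with a median of 30.1 FPKM. The most abundant had 69.4 FPKM at 4 °C against 0.127 FPKM at 23 °C, and the next had 50.6 FPKM at 4 °C against 0.0320 FPKM at 23 °C. The IDs do not show where on the arm these genes lie.

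The placement can be set beside that of the genes most abundant in the cold. The 32 genes under 1 FPKM at 23 °C and at 100 FPKM or more at 4 °C included 7 on 7DS, where the moderate set had 2 of its 219 members. That arm has 2510 of the 99386 gene IDs. Group 7 as a whole, with 13.7% of gene IDs, held 13 of the 32 and 31 members. Group 3, with 15.1% of gene IDs, showed the contrary, with 39 members and none of the 32. These arms and groups were picked after their counts were seen. The strong set is small, and this difference in placement has no test.

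Neighbouring members were counted in the table, which keeps the transcripts of an arm together. No count for genes placed at random was made, so nothing about the spread of members is read from the numbers. In 1 case 2 members followed each other directly. Both lay on 2DS, and they had 55.0 and 58.9 FPKM at 4 °C, against 0.601 and 0.685 FPKM at 23 °C, so that they were alike in both conditions. A further pair, on 3DS, lay 5 gene IDs apart, with 30.2 and 13.2 FPKM at 4 °C, against 0.405 FPKM and a listed 0 at 23 °C. The sources used here do not say how far the order of the table follows that on the chromosome. Over 19871 pairs of adjacent gene IDs on the same arm, each reaching a mean of 1 FPKM, Pearson's r of the log2 differences was 0.02, a correlation across genes that are not independent replicates.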

How the data were processed

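Wheat leaf RNA from 3 libraries at 4 °C and 3 at 23 °C was sequenced. The submitters' processing notes name Cuffdiff 2.1.1, Cufflinks 2.1.1, STAR 2.3.0e, Trimmomatic 0.30 and CASAVA 1.8.2, without roles or settings. No genome build or annotation is named in the sources used here. As deposited by the authors, the table held FPKM values of 442311 transcripts, with columns named cold and control per the file headers, taken as 4 °C and 23 °C. How libraries were combined is not given, and no test could be made.

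FPKM was summed over the transcripts of each of 99386 gene IDs with Python 3.11.15 and pandas 2.3.3, and 57882 transcripts with no gene ID were left out. Chromosome arm and subgenome were read from the ID. The members and lists were chosen with earlier results of these data known. Members are named by ID by a fixed rule: the highest at 4 °C among those listed at 0 at 23 °C, and the highest ratio among the rest. Other members are given by arm and were chosen after their values were seen.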

Additional observations from a re-analysis of the deposited data

Results flagged for a closer look

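Transcripts with no gene ID were outside the set. Among them, 129 met the same rule, under 1 FPKM at 23 °C and from 10 to under 100 FPKM at 4 °C, which was 6.72% of the 1919 such transcripts from 10 to under 100 FPKM at 4 °C. With the conditions exchanged, 84 did, or 4.34% of 1934. Their median level at 4 °C was 19.7 FPKM, and 38 of the 129 were listed at 0 at 23 °C. These are single transcripts, so the shares are not comparable with those of summed genes.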

How the results depend on the processing

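No paired analysis was possible because single libraries have no column of their own, and leaving out a library could not be tried either. Depth is unknown. The number of members (219), the mirror set (82), the members listed at 0 at 23 °C (40) and the arms with a member (39) stayed within 1.5 times under median-of-ratios scaling, the highest transcript in place of the sum, and without homoeologous group 6. Leaving out group 6 can only remove its own members and arms. Scaling leaves an exact 0 at 0, and its size factors were 1.03 at 4 °C and 0.968 at 23 °C. These 2 settings could therefore hardly move the counts, and no stability is read from them. The limits themselves moved the counts. Under 0.5 FPKM in the low condition left 135 members and 53 mirror genes, under 2 FPKM gave 381 and 149, and at least 20 FPKM in the high condition left 97 and 31, with 18 members listed at 0; members outnumbered mirror genes in each. The median number of transcripts was 2 in all settings. The median share of the leading transcript was 81.1% with the highest transcript, 80.2% under 0.5 FPKM, 75.9% under 2 FPKM, 78.1% at 20 FPKM and 78.6% without group 6. The share of members on D chromosomes, 32.9%, was 33.3% after scaling, under 0.5 FPKM and without group 6, 31.6% with the highest transcript, 36.2% under 2 FPKM and 27.8% at 20 FPKM. Without the members listed at 0, which was tried after seeing the data, it was 34.1%, and the share with 1 transcript was 34.1% in place of 42.5%. At 4 °C, 5318 of all genes tested were 2-fold higher or more and 2846 lower. With a mean of at least 5 FPKM these were 3480 and 1533, since fewer genes are tested. With a pseudocount of 0.1 they were 6942 and 4451, and after median-of-ratios scaling 4748 and 3309. Pairs of members within 5 gene IDs numbered 2, against 1 directly adjacent.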

Other observations

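A pair of members listed at 0 at 23 °C, on 7AL and 7DS, had the same value of 19.2 FPKM at 4 °C to the last digit deposited. Each has 1 transcript. They were the only 2 of the 11310 genes from 10 to under 100 FPKM at 4 °C that shared both values exactly. Their arms are not homoeologous to each other, and the table does not say whether their sequences are alike.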
